A study of Mus musculus with 4 samples.

Results

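The genes described here encode 6 receptors that bind chemokines or other attractants, namely Cx3cr1, Ccr1, Ccr2, Cxcr4, Ccrl2 and Cmklr1. They were taken by name from a deposited table of 21044 genes, and all 6 had read counts and passed the filter on low counts that left 13086 genes for testing. They were measured by RNA-seq in microglia, the resident macrophages of the brain, isolated from the corpus callosum of mice at postnatal day 7. The tested libraries, called cKO, were 2 libraries of Lag3cKO-Cx3 mice, in which Lag3 is deleted in cells that use a Cx3cr1 driver. They were compared with 2 libraries of Lag3fl/fl mice, labelled wt and called WT here, which carry the floxed Lag3 allele. The driver line, the exons that the floxed allele loses, and the number of animals behind each library are not given in the sources used here. The driver and the deletion come together in both cKO libraries, so the effects of the driver and of the loss of Lag3 cannot be told apart in any value below. Cre drivers of this kind exist both as knock-in alleles at Cx3cr1 and as transgenes, and the labels do not say which was used.

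Chemokine receptors are proteins with a chain of membrane-spanning helices that signal through inhibitory G proteins, and they turn a gradient of ligand outside the cell into directed movement. CX3CR1 is the receptor of fractalkine, a ligand made by neurons and released from their membranes by the proteases ADAM10 and ADAM17, and it is among the most abundant receptors of microglia. CCR2 draws monocytes out of the bone marrow and into inflamed tissue, and in the brain it is commonly used to tell infiltrating monocytes from resident microglia. CCR1 and CXCR4 are classical chemokine receptors, whereas CMKLR1 and CCRL2 bind chemerin, a protein that is not a chemokine, and CCRL2 holds chemerin at the cell surface without signalling itself.

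The promoters of 4 genes are printed because their genes stood apart most between the groups: Cx3cr1 as the gene that was lower in both cKO libraries and as the locus that names the driver, and Ccr1, Ccr2 and Cmklr1 as genes that were higher in both. Each runs from 250 bases before to 50 bases after the RefSeq start site, on build GRCm38.p6, 5′ to 3′ on the strand of the gene, at chr9:120068247-120068546 (minus strand) for Cx3cr1, chr9:123968643-123968942 (minus) for Ccr1, chr9:124101933-124102232 (plus) for Ccr2 and chr5:113643554-113643853 (minus) for Cmklr1. Capitals mark the letters GAGGAA, the core that the macrophage factor PU.1 recognises.
Cx3cr1: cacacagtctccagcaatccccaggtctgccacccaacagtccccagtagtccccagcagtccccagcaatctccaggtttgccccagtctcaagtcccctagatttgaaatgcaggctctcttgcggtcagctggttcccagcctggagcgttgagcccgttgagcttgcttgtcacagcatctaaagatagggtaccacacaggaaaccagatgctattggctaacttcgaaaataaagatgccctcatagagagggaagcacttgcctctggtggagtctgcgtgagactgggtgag
Ccr1: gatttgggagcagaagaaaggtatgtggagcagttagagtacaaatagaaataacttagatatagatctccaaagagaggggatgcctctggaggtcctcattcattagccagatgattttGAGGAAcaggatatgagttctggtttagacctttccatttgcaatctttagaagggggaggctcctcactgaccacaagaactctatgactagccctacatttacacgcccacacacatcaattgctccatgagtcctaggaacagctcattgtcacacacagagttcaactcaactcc
Ccr2: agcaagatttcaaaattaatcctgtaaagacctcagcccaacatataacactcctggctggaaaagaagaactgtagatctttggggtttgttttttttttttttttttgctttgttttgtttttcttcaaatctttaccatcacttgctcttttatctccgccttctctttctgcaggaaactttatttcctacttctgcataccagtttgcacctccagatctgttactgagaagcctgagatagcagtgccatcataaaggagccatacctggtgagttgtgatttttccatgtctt
Cmklr1: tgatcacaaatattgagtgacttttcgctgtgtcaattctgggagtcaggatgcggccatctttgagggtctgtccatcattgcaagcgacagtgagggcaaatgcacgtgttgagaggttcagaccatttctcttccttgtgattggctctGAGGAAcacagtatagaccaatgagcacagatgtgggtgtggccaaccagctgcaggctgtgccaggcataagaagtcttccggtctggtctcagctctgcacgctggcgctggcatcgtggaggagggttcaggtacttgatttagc
The core was searched on both strands, and was chosen after the promoters had been seen. It lies 129 bases before the start site in Ccr1 and 98 bases before it in Cmklr1, and these letters are not in the windows of Cx3cr1 and Ccr2. The same letters are found in 28.3% of the 32851 mouse promoters of this length. Of the motifs searched, the Ccrl2 and Cxcr4 promoters hold others: GGACTTTCC, a sequence bound by NF-kB, lies 68 bases before 1 of the start sites of Ccrl2 (0.344% of promoters), and a TATA box, TATAAAA, lies 30 bases before that of Cxcr4 (5.48%), where it overlaps a second match on the opposite strand. The letters are a description of the sequence and not a measurement of binding.

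Total counts were 16770162 and 14645187 in the cKO libraries and 15855913 and 14973059 in the WT libraries. The second cKO library stood apart: it had counts for 12787 genes, against 14840 to 15899 in the other 3, and its log2 CPM correlated with theirs at 0.783 to 0.802 across genes, against 0.872 to 0.910 among the other 3. It also had 290.4 CPM of the X-inactivation transcript Xist and no count of the Y-linked Ddx3y, whereas cKO 1 had 6.97 CPM of Xist and 106.9 CPM of Ddx3y, and the WT libraries had no count of Xist and 94.7 and 89.1 CPM of Ddx3y. Xist without Ddx3y is the pattern of female cells, and Ddx3y without Xist is that of male cells. Sex and genotype thus cannot be told apart where cKO 2 is set against the WT libraries. Results are therefore also given without cKO 2. The targeted gene Lag3, an inhibitory immune receptor, had 35.4 and 17.1 CPM in cKO libraries, against 386.7 and 683.0 CPM in WT libraries, a log2 fold change of -4.35, over counts of the whole gene. For microglia, 18 marker genes were listed, and all passed the filter. Their summed level was 34945 and 37514 CPM in cKO libraries and 31446 and 35997 CPM in WT libraries. The sum does not show single markers, some of which differed widely between the cKO libraries. C1qc had 815.0 and 3841 CPM in cKO libraries and 2247 and 2886 CPM in WT libraries. Itgam had 159.0 and 36.2 CPM in cKO libraries and 84.8 and 122.3 CPM in WT libraries.

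At least 1 receptor stood on each side of the comparison. Cx3cr1 was lower in both cKO libraries than in both WT libraries, and Ccr1, Ccr2, Ccrl2 and Cmklr1 were higher in both, while the groups overlapped for Cxcr4. Read against all genes, 20% of the 13086 tested were lower in both cKO libraries, and 15.8% were higher in both. Thus 1 of 6 below is near that background, and 4 of 6 above is a larger share of very few genes. The 6 were chosen with earlier results of these data known, so their share is a description and not a test. Ccrl2 overlapped when the libraries were scaled to the microglia markers, which left 3 above. None of the 6 passed edgeR's quasi-likelihood test with Benjamini-Hochberg adjustment, which called 0 genes, or 0% of those tested, with 608 at an unadjusted p under 0.05. DESeq2 called 39 of 12578 genes, 0.31%, and Cx3cr1 was the only one of the 6 among them. Without cKO 2, 5 of the 6 genes lay above both WT libraries, Cxcr4 being added, and 36% of all genes tested did so. Without cKO 1, 2 lay below both, Cxcr4 again being the added gene, against 45.6% of all genes.

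**Figure D1:**
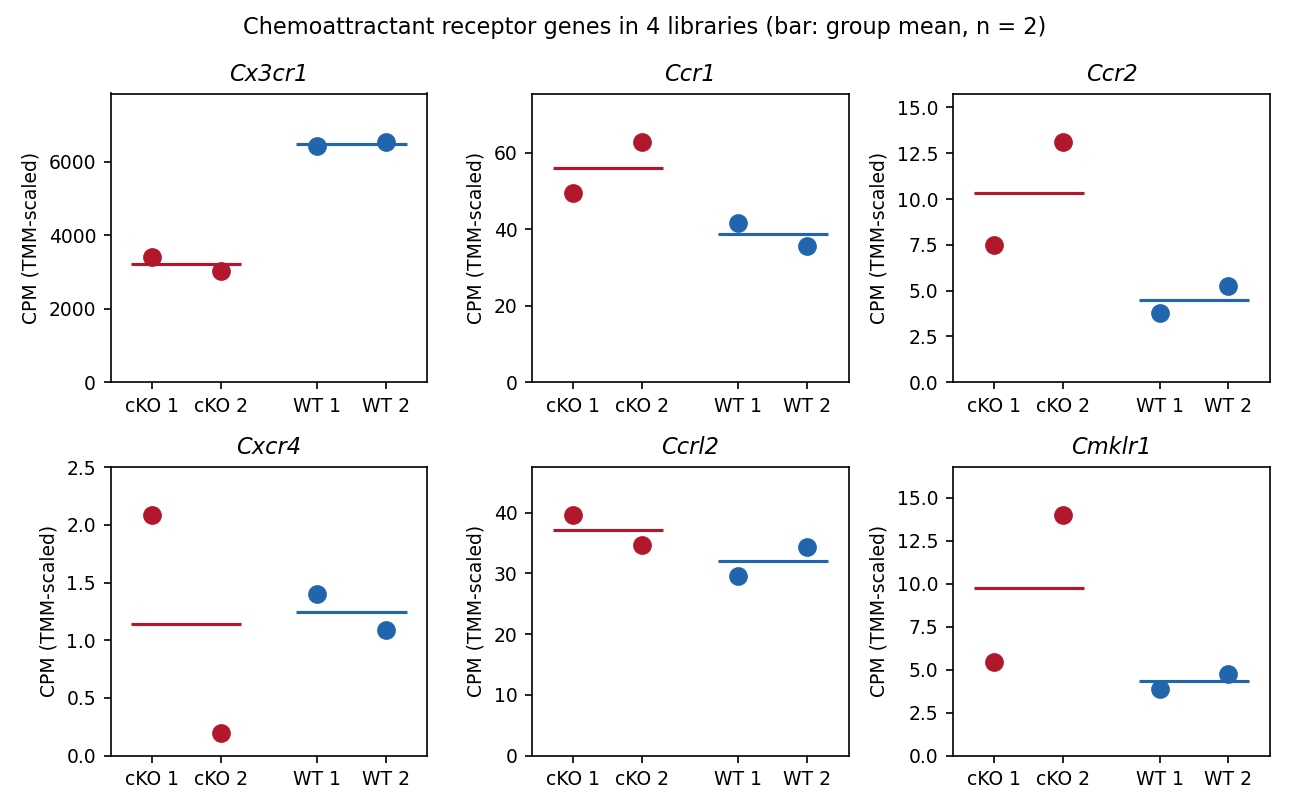
Levels of the 6 receptor genes in the 2 cKO libraries (red, left) and the 2 WT libraries (blue, right), in TMM-scaled CPM on linear axes from 0, with a bar at the mean of each group (n = 2). Cx3cr1 sits at 3404 and 3034 CPM in cKO libraries, below 6443 and 6554 CPM in WT libraries, whereas cKO 2 is the highest library for Ccr1, Ccr2 and Cmklr1 and the lowest for Cxcr4.

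The fractalkine receptor Cx3cr1 (ENSMUSG00000052336, chr9:119901616-120069879 on the minus strand, GRCm38) was the most abundant of the 6 in every library. It had 57168 and 45500 counts in cKO libraries, against 101021 and 96016 counts in WT libraries. Both cKO libraries were low and both WT libraries were high, with no overlap, and each pair of libraries of the same genotype lay close together. Its level averaged 3219 ± 262.2 CPM in cKO libraries and 6498 ± 78.5 CPM in WT libraries (SD, n = 2 each), a ratio of 0.495. The 4 single ratios of a cKO to a WT library ran from 0.463 to 0.528, while cKO 2 over cKO 1 was 0.891 and WT 2 over WT 1 was 1.02. The fitted change was -1.01 on the log2 scale (SE 0.13), and its 95% interval ran from -1.35 to -0.68. With edgeR its unadjusted p was 0.000719 and its adjusted p was 0.9997, and with DESeq2 its adjusted p was 2.53e-08. In bulk RNA, fewer cells of a type and less RNA per cell cannot be told apart. Scaling the libraries to the 18 microglia markers in place of all genes gave -1.08. The log2 fold change was -0.93 without cKO 2, the library that stands apart, and -1.10 without cKO 1. In the fit without cKO 1, which takes the lone cKO library to vary like the WT libraries, Cx3cr1 had an edgeR adjusted p of 0.0290, as 1 of 748 genes called, 5.72% of those tested.

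**Figure D2:**
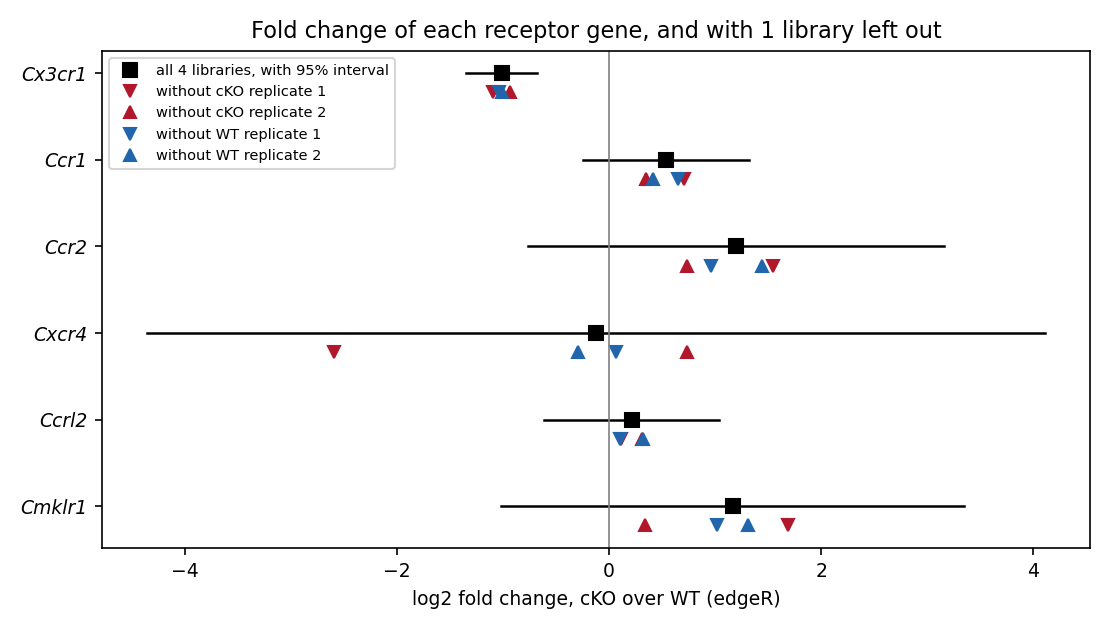
Log2 fold change, cKO over WT, of the 6 receptor genes (edgeR): black squares with 95% intervals use all 4 libraries, and triangles are the fits with 1 library left out (red for a cKO library, blue for a WT library). The interval of Cx3cr1 (-1.35 to -0.68) is the only one of the 6 that lies to one side of 0, and the triangles of Cxcr4 spread from -2.59 to 0.74.

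The genes around Cx3cr1 were examined because the driver bears its name. Within 500 kb of the annotated gene 11 other genes were tested, and 5 of them lie inside or overlap its span, which the annotation draws long. Over all genes tested, 20% were lower in both cKO libraries and 15.8% were higher in both. Of the 8 neighbours with a mean of at least 5 CPM, 1 was lower in both, 1 was higher in both and 6 overlapped. The 4 of these inside or overlapping the span, Wdr48, Gorasp1, Csrnp1 and AC117245.5, had log2 fold changes of -0.10 to 0.28. Slc25a38, 40.5 kb beyond the start of Cx3cr1, had 15.3 and 39.1 CPM in cKO libraries and 16.4 and 26.1 CPM in WT libraries. Rpsa, a ribosomal protein gene, lies 57.8 kb beyond that start. It had 109.2 and 133.9 CPM in cKO libraries and 126.0 and 118.8 CPM in WT libraries. Eif1b, a translation initiation factor gene 422.4 kb away, had 31.1 and 10.6 CPM in cKO libraries, against 52.2 and 37.5 CPM in WT libraries, a log2 fold change of -1.10 (SE 0.61). Cx3cr1 shares exon sequence with 1 annotated gene, Gm33858, over 78 bases on the opposite strand, and the counting is not stated to use strand.

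**Figure D3:**
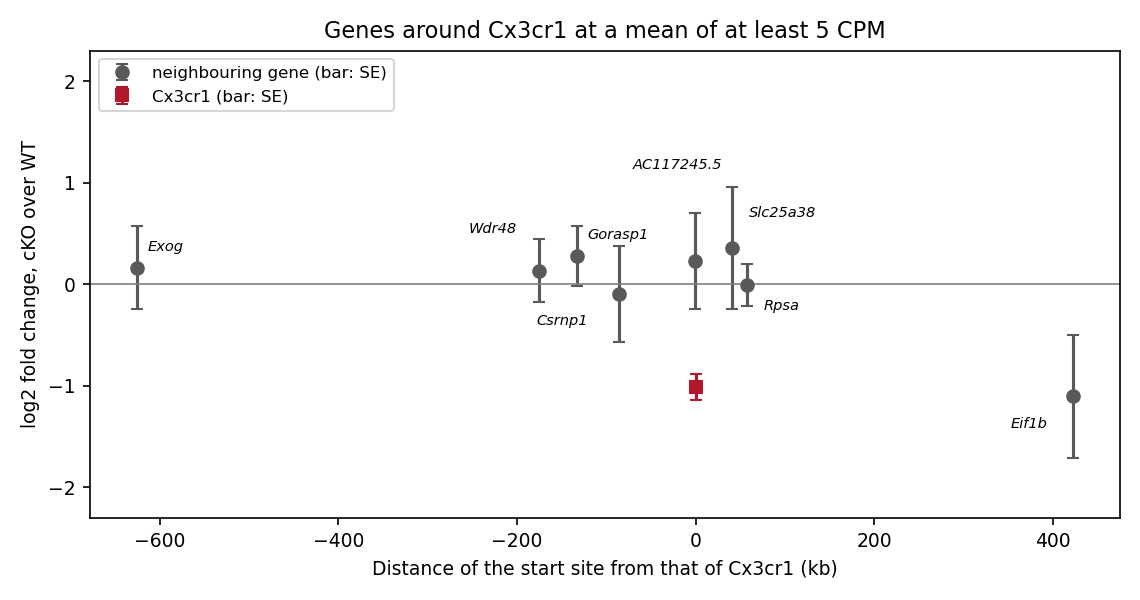
Log2 fold change, cKO over WT, with its standard error, for Cx3cr1 (red square) and the 8 tested genes within 500 kb of it at a mean of at least 5 CPM (grey), against the distance of their start sites in kb. The genes with start sites near that of Cx3cr1 lie around 0, at -0.10 to 0.28 inside or overlapping its span, and Cx3cr1 lies at -1.01.

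Ccr1 (ENSMUSG00000025804, chr9:123962124-123968692, minus strand), a receptor of CCL3 and related chemokines, had 829 and 944 counts in cKO libraries, against 655 and 521 counts in WT libraries. In CPM these were 49.4 and 62.9 in cKO libraries, against 41.8 and 35.6 in WT libraries. Both cKO libraries were higher, cKO 2 most, with no overlap. The log2 fold change was 0.54 with a 95% interval of -0.25 to 1.32, and edgeR gave an unadjusted p = 0.136 and an adjusted p = 0.9997. It was 0.35 without cKO 2 and 0.70 without cKO 1, each in the same direction.

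Ccr2 (ENSMUSG00000049103, chr9:124101950-124113557, plus strand), the receptor that recruits monocytes, had 126 and 197 counts in cKO libraries, against 59 and 77 counts in WT libraries. These are 7.50 and 13.1 CPM in cKO libraries, against 3.76 and 5.26 CPM in WT libraries. Both cKO libraries were higher, and the gap between them, a ratio of 1.75, was as wide as some gaps between the groups, where ratios ran from 1.43 to 3.49. The log2 fold change was 1.19 with a 95% interval of -0.77 to 3.15, and edgeR gave an unadjusted p = 0.175 and an adjusted p = 0.9997. Without cKO 2 it was 0.73. Part of its exon sequence, 2.19% of its words of 50 bases, is found in other annotated genes.

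Markers of monocytes and neutrophils were read beside Ccr2, since the isolate could hold such cells. Of 17 listed genes 11 were tested, of which 2 (18.2%) were higher and 2 lower in both cKO libraries, against 15.8% and 20% of all genes, with a median log2 fold change of 1.08, against -0.03 over all genes tested. None was called by edgeR. DESeq2, which called 0.31% of all genes, called 2 of them on opposite sides, Ngp as higher and Mmp8 as lower, each with at most 5 counts per library in 1 of the groups. Their summed level was 297.8 and 462.4 CPM in cKO libraries and 267.3 and 293.7 CPM in WT libraries, of which Csf3r, also expressed by microglia, made up 203 to 266 CPM. Ly6c2, which marks inflammatory monocytes, had 9 and 37 counts in cKO libraries and 65 and 16 counts in WT libraries. Chil3, another gene of the list, had 6 and 25 counts in cKO libraries, against 1 and 0 counts in WT libraries. Plac8 and the calprotectin gene S100a8 were highest in cKO 2, with 287 and 808 counts of Plac8 in cKO libraries against 397 and 86 counts in WT libraries, and 46 and 207 counts of S100a8 in cKO libraries against 72 and 26 counts in WT libraries. The markers thus did not share 1 order over the libraries. The granule gene Ngp had 37 and 626 counts in cKO libraries, against 0 and 5 counts in WT libraries, and the granule gene Ltf had 0 and 632 counts in cKO libraries, against 2 and 18 counts in WT libraries. Mmp8, a neutrophil collagenase, had no count in either cKO library, against 100 and 76 counts in WT libraries. The granule enzymes Elane and Mpo were at 0 in both cKO libraries and in WT 2, with 115 and 129 counts in WT 1. The part of these cells in the level of Ccr2 was not tested.

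Cxcr4 (ENSMUSG00000045382, chr1:128588199-128592293, minus strand), the receptor of CXCL12, was the gene of the 6 with the fewest counts. It had 35 and 3 counts in cKO libraries and 22 and 16 counts in WT libraries. The cKO libraries lay on either side of both WT libraries, at 2.08 and 0.200 CPM in cKO libraries and 1.40 and 1.09 CPM in WT libraries. The ratio of cKO 2 to cKO 1 was 0.0960, with an exact conditional 95% interval of 0.0189 to 0.304, which covers counting error only. Against the WT libraries, cKO 2 had ratios of 0.143 (0.0273 to 0.475) and 0.183 (0.0342 to 0.640). The difference within the cKO group was thus beyond counting error, and the log2 fold change over the groups was -0.12 with a 95% interval of -4.36 to 4.11. That value took the opposite sign without cKO 2, at 0.74, and without WT 1, at 0.06, and was -2.59 without cKO 1.

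Ccrl2 (ENSMUSG00000043953, chr9:111054486-111057519, minus strand), the chemerin-presenting receptor, varied least among the 5 receptors other than Cx3cr1. It had 665 and 519 counts in cKO libraries and 465 and 504 counts in WT libraries. In CPM the values were 39.6 and 34.6 in cKO libraries and 29.7 and 34.4 in WT libraries, so that the groups nearly touched, and with scaling to the microglia markers they overlapped. The log2 fold change was 0.21 with a 95% interval of -0.61 to 1.04, and edgeR gave an unadjusted p = 0.533. Leaving out 1 library gave 0.10 (without WT 1) to 0.32 (without WT 2), each in the same direction. The neutrophil granule gene Ltf, given above, lies 11.7 kb from Ccrl2.

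Cmklr1 (ENSMUSG00000042190, chr5:113612354-113650426, minus strand), the signalling receptor of chemerin, had 92 and 210 counts in cKO libraries, against 61 and 70 counts in WT libraries. Both cKO libraries were higher, at 5.48 and 14.0 CPM in cKO libraries, against 3.89 and 4.78 CPM in WT libraries, but cKO 1 lay much nearer to the WT libraries than to cKO 2. The log2 fold change was 1.17 with a 95% interval of -1.02 to 3.35, and edgeR gave an unadjusted p = 0.224 and an adjusted p = 0.9997. It was 0.34 without cKO 2 and 1.69 without cKO 1. Border-associated macrophages, a further source the isolate could hold, were read from 8 markers, with a median log2 fold change of 0.03. In both cKO libraries 1 marker was higher and 0 were lower, 12.5% and 0%, against 15.8% and 20% of all genes tested. Their summed level was 527.7 and 545.5 CPM in cKO libraries and 507.5 and 552.2 CPM in WT libraries. Most of that sum was Mrc1, at 409.7 and 462.6 CPM in cKO libraries and 406.2 and 472.1 CPM in WT libraries. Lyve1, the higher marker, had 14.9 and 14.8 CPM in cKO libraries, against 8.67 and 3.28 CPM in WT libraries. Cd163 overlapped, with 208 and 0 counts in cKO libraries and 149 and 117 counts in WT libraries.

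Per kilobase of gene, Cx3cr1 stood far above the rest, at 756.6 and 689.6 FPKM in cKO libraries and 1414 and 1423 FPKM in WT libraries. It held 95.4% and 94.2% of the summed FPKM of the 6 in cKO libraries, against 98.0% and 98.1% in WT libraries. Among all genes of the table it ranked 42nd and 50th in cKO libraries and 26th in each WT library. Ccr1, at 17.4 and 22.8 FPKM in cKO libraries and 14.6 and 12.3 FPKM in WT libraries, and Ccrl2, at 15.3 and 13.6 FPKM in cKO libraries and 11.3 and 12.95 FPKM in WT libraries, came next. Their levels overlapped in WT libraries, and Ccr1 was the higher of the pair in both cKO libraries. Cmklr1 followed at 1.61 and 4.21 FPKM in cKO libraries and 1.13 and 1.37 FPKM in WT libraries. Ccr2, at 1.11 and 1.99 FPKM in cKO libraries and 0.550 and 0.761 FPKM in WT libraries, lay below it in WT libraries, while the pair overlapped in cKO libraries. Cxcr4, at 1.15 and 0.113 FPKM in cKO libraries and 0.767 and 0.591 FPKM in WT libraries, could not be separated from Ccr2 in either group.

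**Figure D4:**
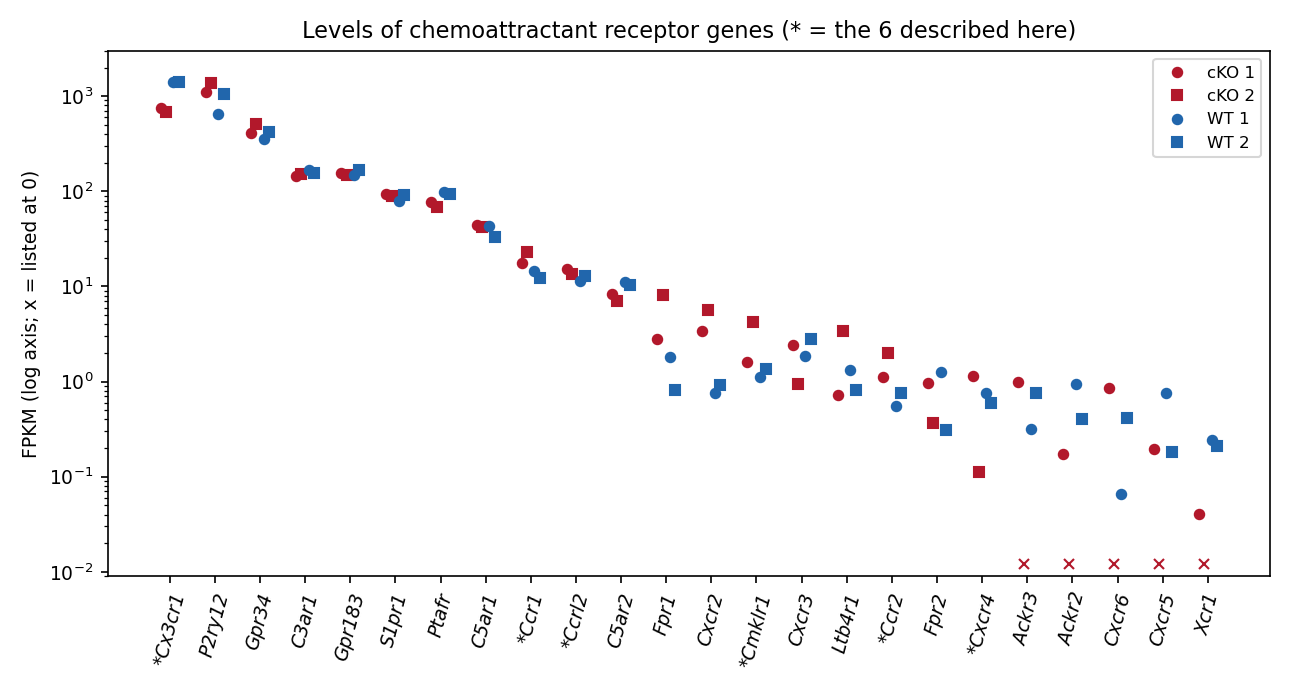
FPKM on a log axis of the 6 receptors described here (starred) and of 18 other chemoattractant receptors, each past the filter on low counts, ordered by their mean over 4 libraries, with the cKO libraries in red on the left of each gene and the WT libraries in blue on the right; crosses are values listed at 0. Cx3cr1 leads in WT libraries at 1414 and 1423 FPKM, and in cKO libraries P2ry12 lies above it.

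Other receptors of the same families were read for comparison from lists chosen by function. Of 15 further chemokine receptors 11 had counts and 6 were tested, and their median was -0.09 on the log2 scale. In both cKO libraries 1 was higher and 1 was lower, 16.7% each way, near the 15.8% and 20% of all genes tested. Cxcr2, a neutrophil receptor, was the one higher in both, at 10.4 and 16.8 CPM in cKO libraries, against 2.36 and 2.87 CPM in WT libraries, with a log2 fold change of 2.38 and an edgeR unadjusted p = 0.0238 and an adjusted p = 0.9997. Xcr1, a dendritic cell receptor, was the one lower in both, with 3 and 0 counts in cKO libraries, against 17 and 14 counts in WT libraries. Of the scavenging atypical receptors, Ackr2 and Ackr3 were tested and had no count in cKO 2; Ackr2 had 9 and 0 counts in cKO libraries, against 47 and 19 counts in WT libraries.

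Receptors of other attractants gave 11 tested genes, with 2 higher and 3 lower in both cKO libraries and a median of 0.05. Ptafr, the receptor of platelet-activating factor, had 282 and 241 CPM in cKO libraries, against 358 and 352 CPM in WT libraries, a log2 fold change of -0.44 with an edgeR unadjusted p = 0.0513 and an adjusted p = 0.9997. P2ry12, the purinergic receptor that guides microglial processes towards injury, had 2831 and 3382 CPM in cKO libraries, against 1654 and 2773 CPM in WT libraries, a log2 fold change of 0.49. Fpr1, a receptor of bacterial formyl peptides, had 3.69 and 10.6 CPM in cKO libraries, against 2.42 and 1.09 CPM in WT libraries. C5ar2 had 29.5 and 24.7 CPM in cKO libraries, against 40.5 and 37.4 CPM in WT libraries. None of the 11 was called by edgeR or DESeq2, and the shares that were higher (18.2%) and lower (27.3%) in both cKO libraries are near those of all genes tested (15.8% and 20%).

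The ligands of the 6 receptors, with the proteases that release fractalkine, gave 11 tested genes of 15 listed. In both cKO libraries 4 were higher and 3 were lower, 36.4% and 27.3% of those tested, against 15.8% and 20% of all genes, and the median was 0.12 on the log2 scale, with none called by edgeR or DESeq2. The ligands of CCR2 were those with the smallest p. Ccl2 had 320.5 and 748.9 CPM in cKO libraries, against 242.2 and 241.1 CPM in WT libraries, a log2 fold change of 1.15 with an edgeR unadjusted p = 0.0463 and an adjusted p = 0.9997. Ccl7 had 28.7 and 70.5 CPM in cKO libraries, against 18.8 and 17.7 CPM in WT libraries, a log2 fold change of 1.44 with an edgeR unadjusted p = 0.0442 and an adjusted p = 0.9997. Ccl12, a mouse relative of Ccl2, had 65.1 and 293.8 CPM in cKO libraries, against 36.0 and 40.9 CPM in WT libraries, a log2 fold change of 2.22 with an edgeR unadjusted p = 0.0329 and an adjusted p = 0.9997. In these 3 genes cKO 2 was the highest library and cKO 1 lay between it and the WT libraries, the same order as in Ccr2.

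Ccl3, Ccl6 and Ccl9, ligands of CCR1, did not follow this order. Ccl6 had 1099 and 994 CPM in cKO libraries, against 1246 and 1335 CPM in WT libraries, a log2 fold change of -0.30. Cxcl12, the ligand of CXCR4, had 85 and 3 counts in cKO libraries, against 131 and 227 counts in WT libraries. Fractalkine itself (Cx3cl1) and chemerin (Rarres2) are made by other cells, and had no count in cKO 2 and WT 1. Cx3cl1 had 42 counts in WT 2 and none in cKO 1, and Rarres2 had 1 count in cKO 1 and 15 counts in WT 2.

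**Figure D5:**
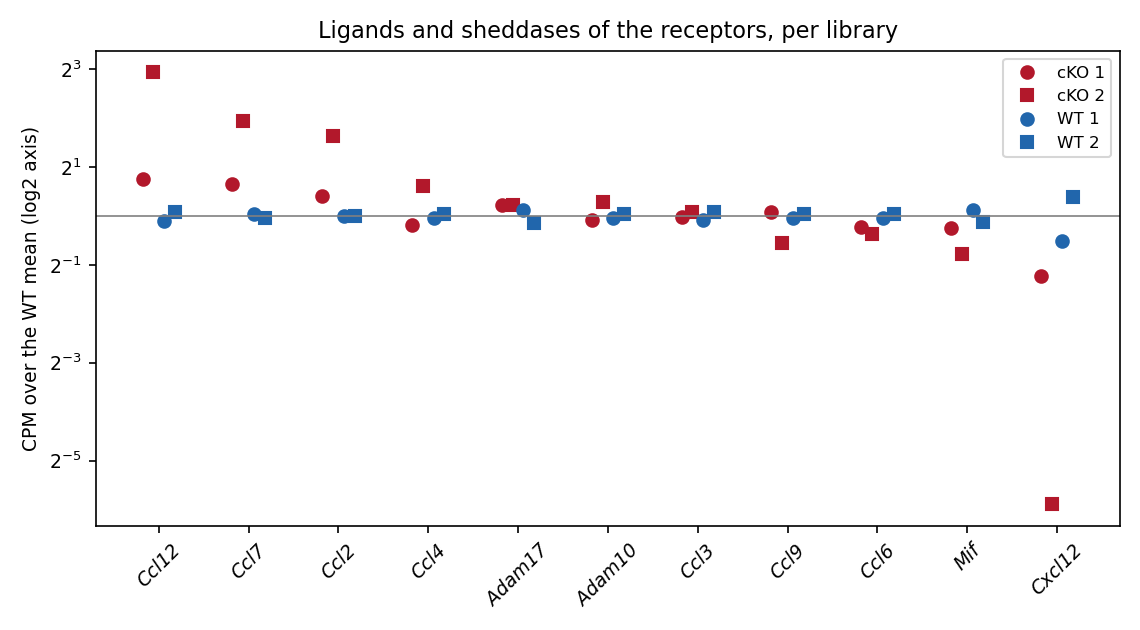
CPM of each tested ligand or fractalkine-releasing protease over the mean of the WT libraries, on a log2 axis, with the cKO libraries in red on the left and the WT libraries in blue on the right of each gene. Ccl12, Ccl7 and Ccl2 are highest in cKO 2 (293.8, 70.5 and 748.9 CPM), and Cxcl12 is lowest there at 3 counts.

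Signalling genes downstream of the receptors, such as G protein subunits, receptor kinases, regulators of G protein signalling and activators of Rac, gave 31 tested genes. In both cKO libraries 6 were higher and 6 were lower, 19.4% each way, against 15.8% and 20% of all genes, with a median of 0.08. Rgs18, a regulator known from platelets and blood cells, had 26 and 169 counts in cKO libraries, against no count in either WT library. Rgs14, a regulator that acts on the inhibitory G protein, had 106 and 59 counts in cKO libraries, against 226 and 209 counts in WT libraries. Rac1, a GTPase that drives the leading edge of moving cells, had 70.0 and 150.8 CPM in cKO libraries, against 171.0 and 243.6 CPM in WT libraries. Plcb3, a phospholipase activated by receptors of this kind, had 25.2 and 32.9 CPM in cKO libraries, against 42.0 and 55.5 CPM in WT libraries. None of the 31 was called by edgeR or DESeq2.

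Among microglia markers 5 of 18 were higher and 3 lower in both cKO libraries, 27.8% and 16.7%, against 15.8% and 20% of all genes tested, with a median of 0.09. Tmem119 had 773.2 and 1172 CPM in cKO libraries, against 380.9 and 540.9 CPM in WT libraries, a log2 fold change of 1.08 with an edgeR unadjusted p = 0.0160 and an adjusted p = 0.9997. Sall1, a transcription factor of microglial identity, had 269.6 and 177.8 CPM in cKO libraries, against 305.7 and 320.6 CPM in WT libraries, a log2 fold change of -0.49. The summed astrocyte markers were highest in cKO 2, as were Ccr1, Ccr2 and Cmklr1. So were the summed markers of microglia, monocytes and neutrophils, neurons, lymphocytes and dendritic cells, and erythroid cells. Some of these sums rest on single genes. In cKO 2, Cd79a made up all 6.40 CPM of the lymphocyte and dendritic cell sum, and 5 of the 6 genes with counts were at 0. The 2 tested genes of that list were lower in both cKO libraries, as were 20% of all genes tested. Map2 made up 53.9 of the 63.5 CPM of the neuron sum in cKO 2, where 3 of 5 genes were at 0. Of the astrocyte markers tested, 5 of 9 were higher and 0 lower in both cKO libraries, with a median of 1.44. The summed level of astrocyte markers was 243.7 and 519.1 CPM in cKO libraries and 225.5 and 185.2 CPM in WT libraries. The summed levels of the other lists were 212.4 and 136.6 CPM in cKO libraries and 131.1 and 137.3 CPM in WT libraries for the oligodendrocyte lineage, and 22.8 and 63.5 CPM in cKO libraries and 9.89 and 23.2 CPM in WT libraries for neurons. Endothelial cells and pericytes gave 30.5 and 22.5 CPM in cKO libraries and 23.2 and 19.0 CPM in WT libraries, lymphocytes and dendritic cells 3.22 and 6.40 CPM in cKO libraries and 3.64 and 2.12 CPM in WT libraries, and erythroid cells 11.2 and 12.5 CPM in cKO libraries and 3.57 and 4.85 CPM in WT libraries. The lymphocyte and dendritic cell sum of cKO 1 includes 0.476 CPM of Ms4a2, read in place of the listed Ms4a1. The part of these cell types in the receptor levels was not tested.

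The authors' deposited tables compare 1 cKO with 1 WT library each and call a gene at a fold of 2 or more and p under 0.05. In the authors' deposited table of cKO 1 against WT 1, 36.1% of all genes were called, against 34.8% for cKO 1 against WT 2, 46.8% for cKO 2 against WT 1 and 48.8% for cKO 2 against WT 2. Of the 6 receptors, the authors' deposited tables called 1, 0, 4 and 4 in that order. Cx3cr1 was called lower in both tables of cKO 2, with folds of 0.488 and 0.485 in the authors' deposited tables, while those of cKO 1, at 0.535 and 0.532, fell just short of 2-fold. Ccr2 was called higher in 3 of the authors' deposited tables, with folds of 2.02, 3.62 and 2.62, and had a fold of 1.46 in the table of cKO 1 against WT 2. Cmklr1 was called higher, and Cxcr4 lower, in both of the authors' deposited tables of cKO 2 only. Ccr1 and Ccrl2 were called in none of the authors' deposited tables, although every fold was above 1. These tables share libraries, so they do not count as separate replicates.

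Of the 6 genes, 4 lie on chromosome 9, where 133258 bp separate Ccr1 from Ccr2, 3.89 Mb separate Cx3cr1 from Ccr1 and 8.84 Mb separate Ccrl2 from Cx3cr1. The neighbours did not share 1 direction there: Cx3cr1 was lower and the other three higher in both cKO libraries. Next to Ccr1, Fyco1, an adaptor of vesicle transport, had 56.8 and 51.9 CPM in cKO libraries and 51.5 and 65.8 CPM in WT libraries, and the groups overlapped.

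The genes nearest in pattern were found among 3515 genes with a mean of at least 50 CPM, by the distance between log2 CPM profiles centred over the 4 libraries; with 4 libraries, many genes lie close by. Nearest to Cx3cr1 were Lrrc59, a membrane protein of the endoplasmic reticulum (distance 0.04), Atad3a, a mitochondrial ATPase (0.10), and Snx8, a sorting nexin (0.15). Lrrc59 had 54.5 and 47.9 CPM in cKO libraries, against 101.1 and 101.2 CPM in WT libraries. For Ccr2 they were Cenpe, a mitotic kinesin, Parp10 and the microglia marker Tmem119, and for Cmklr1 they were Aurkb, a mitotic kinase, Ccl2 and Cpd. For Ccr1 they were Hltf, Gmppa and Usp14, for Ccrl2 Hnrnpr, Txnl1 and Nsfl1c, and for Cxcr4 Myo18a, Crebbp and Mitf.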

How the data were processed

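Total RNA of isolated microglia was read on an Illumina platform in 4 libraries. HTSeq 0.6.0, TopHat2 2.0.12 and Bowtie2 2.2.3 stand in the submitters' processing notes beside the build mm9, and settings and strandedness do not. Gene positions matched GRCm38 for 92.1% of 21008 genes shared with GENCODE M21, so positions are given as GRCm38. The authors deposited FPKM values and 4 pairwise tables that hold, per the file headers, read counts, a normalized signal, a ratio (fold), the log2 of that ratio, and raw and adjusted p-values. Their test is not given in the sources.

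Joining the 4 tables gave counts for 18459 genes; 4315 of 73836 counts, the highest being 4, were recovered from the deposited FPKM values, 100% of them whole within 1e-06. Tests used edgeR 4.0.16 in R 4.3.3 (TMM, filterByExpr, quasi-likelihood F test, adjusted p under 0.05 over all genes), and CPM values are scaled by TMM. Standard errors derive from the F statistic. Alternatives were DESeq2 1.42.0, limma 3.58.1 on log2(FPKM + 1), with 0.1 and 0.5 in place of 1, other scalings and filters, a replicate block, and leaving out each library. The scripts were tested on simulated data. With 2 libraries a group, and nothing on separate animals, p-values reflect no more than the spread among them, which may be technical. The members and the gene lists were chosen with earlier results of these data known. Named genes are the 6 receptors, Lag3, 3 genes nearest in pattern to each receptor, and chromosomal neighbours. Up to 4 genes of each list with the smallest unadjusted p are named as well. Csf3r, Ly6c2, Chil3, Plac8, S100a8, Elane, Mpo, Cx3cl1, Rarres2, Cxcl12, Ccl3, Ccl9, C1qc, Itgam, Mrc1, Cd79a and Ms4a2 were chosen after their values were seen. Promoters are from RefSeq (GRCm38.p6), with all 6 genes matched.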

Additional observations from a re-analysis of the deposited data

How the results depend on the processing

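Of 90 recomputed fold changes of the 6 receptors, over 15 alternative settings, 86 kept their direction and their side of the threshold. In the settings that called 0 genes, no receptor could change its side. Keeping direction also sets no limit on how far the size of a change moved. For Cx3cr1, DESeq2 (log2 fold change -1.004) passed the threshold, as did 1 of the fits with a library left out, which ranged from -1.10 to -0.93. For Cxcr4, leaving out 1 library gave -2.59 to 0.74, with the opposite sign without cKO 2 (0.74) and without WT 1 (0.06). Leaving out 1 library gave 0.35 to 0.70 for Ccr1, 0.73 to 1.54 for Ccr2, 0.10 to 0.32 for Ccrl2 and 0.34 to 1.69 for Cmklr1. The number of genes called was 0 in the other settings, 39 with DESeq2 and 0 to 748 with 1 library left out, 748 being without cKO 1, where the median of all genes moved by -0.12. The causes were not tested. The replicate block, which changed no call, gave -1.02 for Cx3cr1, 0.53 for Ccr1, 1.16 for Ccr2, -0.87 for Cxcr4, 0.21 for Ccrl2 and 1.02 for Cmklr1, with 0 genes called; same-numbered libraries did not deviate together (r = -0.02 across genes). With pseudocount 1 on FPKM, limma gave 0.60 for Ccr2 and 0.71 for Cmklr1. Chosen after seeing the data, leaving out a cKO library gave 4 to 5 receptors above both WT libraries and 1 to 2 below; scaling to microglia markers gave 3 above. Counts of 3 to 35 for Cxcr4 limit that gene by depth.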
